A study of Danio rerio with 6 samples.

Results

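The genes described are 8 interferon response genes of the zebrafish: the signalling factor stat2, the interferon regulatory factors irf1b, irf7 and irf9, and the interferon-stimulated genes isg15, rsad2, mxa and mxb. They were found by looking up the symbol of each Ensembl gene identifier in the deposited tables, with the paralog settled by its chromosome, and all 8 were found among the 32520 genes listed. The libraries are polyadenylated RNA of untreated whole larvae at 5 days post fertilization, kept under a light-dark cycle of 14 h and 10 h, with 30 larvae pooled into each sample. There are 3 samples labelled (stim2a;stim2b)-/-, mutant in both zebrafish genes for the calcium sensor STIM2, and 3 samples labelled (stim2a;stim2b)+/+, wild type at both, with replicate numbers 1 to 3 in each group. No label gives an infection or an interferon treatment, so the values describe the level of these genes in unchallenged larvae. A pool mixes all tissues of its larvae, and the labels name no separate clutches, so every p-value refers to the variation among these 6 pools alone.

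Interferons are cytokines released by cells that sense viral nucleic acid. Cytosolic and endosomal sensors act through adaptors and the kinase TBK1 on IRF3 and IRF7, which switch on interferon genes. Secreted interferon binds class II cytokine receptors, and the kinases JAK1 and TYK2 then phosphorylate STAT proteins, among them STAT2, which join IRF9 in the complex ISGF3 and switch on the interferon-stimulated genes. Fish have virus-induced type I interferons, called phi interferons in the zebrafish, and duplicate copies of several pathway genes, such as those for IRF1 and the Mx proteins.

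The RNA of the targeted genes went against the labels. The level of stim2a was 1.31, 1.41 and 1.199 TPM (a transcript abundance scaled for gene length and to 1 total in every library) in the libraries labelled −/−, against 0.329, 0.252 and 0.403 TPM among those labelled +/+. The level of stim2b was 1.52, 1.35 and 1.85 TPM in the libraries labelled −/−, against 0.543, 0.475 and 0.722 TPM among those labelled +/+. Both genes were higher in every library labelled −/− than in any labelled +/+, with log2 fold changes of 1.13 and 0.94 on the log2(TPM + 0.5) scale. These are a check of the labels and are given with no test, since both genes reached 1 TPM only in the libraries labelled −/−. Every direction below therefore refers to the labels, which these 2 genes contradict, and each group is named by its label. The ratio of coverage to FPKM, a measure of relative depth, was between 4.64 and 5.93 among libraries labelled −/− and between 5.53 and 5.82 among those labelled +/+. Between 20094 and 20363 genes reached 1 TPM per library labelled −/− and between 19582 and 20091 per library labelled +/+. Replicate 3 stood at the high end of the first principal component in each group, and the component held 79.6% of the variance.

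Among the 8 genes, stat2 was higher among libraries labelled −/−, at 1.40 times the level of those labelled +/+, and isg15 was lower, at 0.413 times that level. The level of irf9 in all 3 libraries labelled −/− lay slightly below that in every library labelled +/+. The other 5 genes had overlapping groups. In RNA of whole larvae, fewer cells of a type and less RNA per cell cannot be told apart. All fold changes are on the log2(TPM + 0.5) scale, where those of low genes are understated, and each is the libraries labelled −/− minus those labelled +/+. Of the 8 genes, 4 reached 1 TPM in at least 3 libraries and were tested by limma with Benjamini-Hochberg adjustment over all genes tested. Of these 4, 1 was called higher (stat2) and none lower at an adjusted p under 0.05, against 30.8% higher and 8.76% lower among all 20330 genes tested, or 39.6% in either direction. At an unadjusted p under 0.05, limma gave 1 higher and 0 lower among the 4, and no share of all genes at that threshold is given. The median log2 fold change of the 4 was −0.09, against 0.22 over all genes tested. Groups did not overlap for 3 of the 8 genes, against 46.9% of the 27826 genes above 0 in any library. Neither share exceeds that of all genes. In the fit of all genes above 0 in any library, 1 of the 8 was called higher and 1 lower, against 16.4% and 6.86% of all genes. Counts this small cannot show an excess or a lack of change among these genes.

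**Figure D1:**
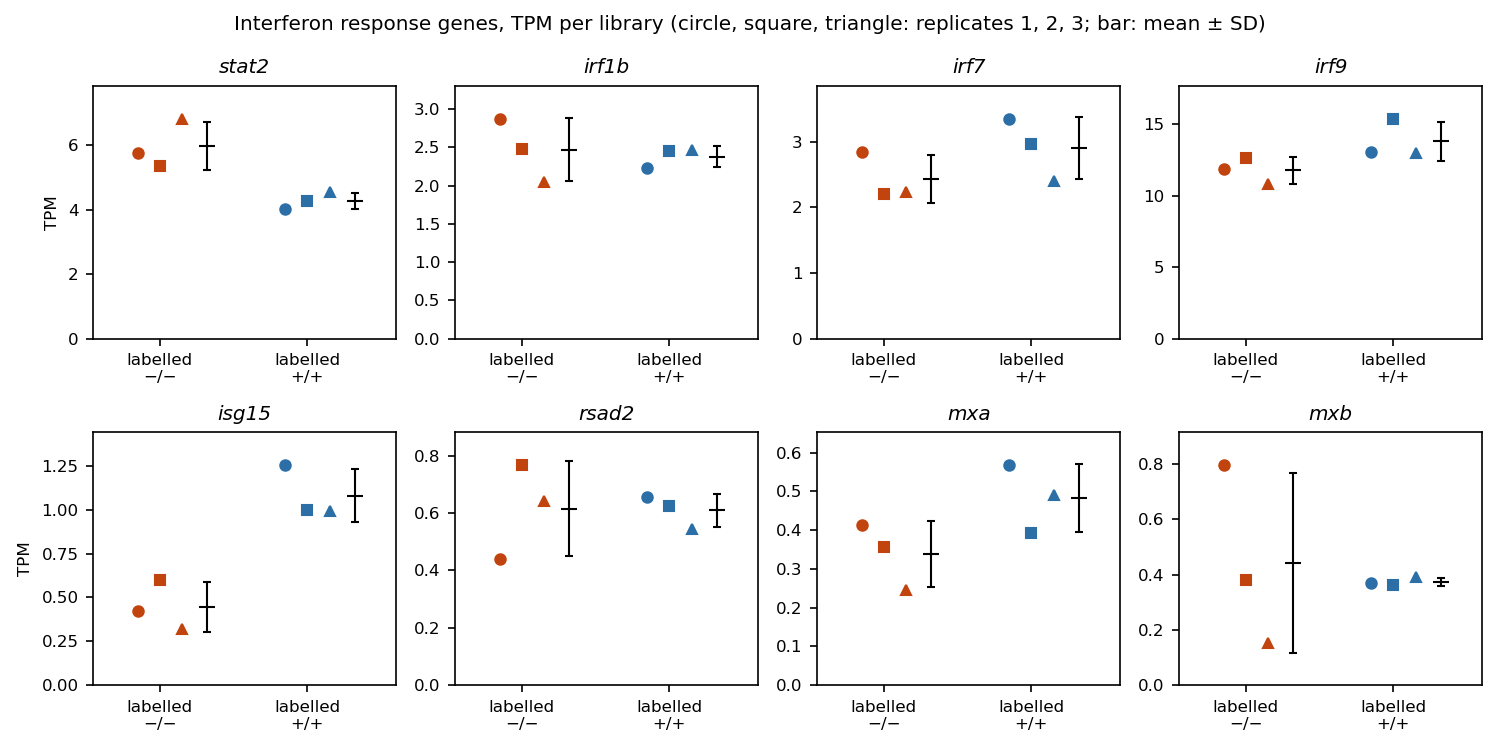
TPM of the 8 interferon response genes in each of the 6 libraries, labelled −/− at the left and labelled +/+ at the right of each panel, with circles, squares and triangles for replicates 1, 2 and 3 and bars for the mean ± SD (n = 3 each). The vertical axes start at 0 and differ between panels. The groups lie apart for stat2, irf9 and isg15 and overlap for the other 5 genes.

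STAT2 is a subunit of ISGF3 and is specific to type I and type III interferon in mammals. The gene stat2 (ENSDARG00000031647.9, chromosome 6, 39123544 to 39160422) had 5.78, 5.36 and 6.82 TPM in the libraries labelled −/−, against 4.04, 4.27 and 4.54 TPM among those labelled +/+. Every library labelled −/− was above every library labelled +/+, with means of 5.99 ± 0.755 TPM and 4.28 ± 0.250 TPM (SD, n = 3 each) and a ratio of 1.40. It was the 1 gene called among the 4 tested, with a log2 fold change of 0.43 ± 0.13 (SE) and an adjusted p of 0.0328 by limma. The call was lost without replicate 1 labelled −/− (adjusted p = 0.0725), replicate 3 labelled −/− (0.0822), replicate 1 labelled +/+ (0.122) or replicate 2 labelled +/+ (0.111). The log2 fold change stayed between 0.34 and 0.50 whichever 1 library was left out. Higher calls over all genes, 6265 with every library, numbered 3211, 3316, 527 and 357 in the fits that lost the call, in that order. An exact permutation test (two-sided) returned p = 0.1, the smallest that 3 samples against 3 allow.

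Among the interferon regulatory factors, IRF9 is the DNA-binding subunit of ISGF3. It was the most abundant of the 8 genes, at percentile 79.2 of all listed genes by mean TPM over the 6 libraries. The gene irf9 (ENSDARG00000016457.11, chromosome 12, 13282797 to 13306883) had 11.9, 12.7 and 10.8 TPM in the libraries labelled −/−, against 13.1, 15.4 and 13.0 TPM among those labelled +/+. The groups lay apart by a narrow gap, between 12.7 TPM in replicate 2 labelled −/− and 13.0 TPM in replicate 3 labelled +/+. Their means were 11.77 ± 0.931 TPM and 13.8 ± 1.36 TPM (SD, n = 3 each). The log2 fold change of −0.22 ± 0.11 (SE) did not pass without the replicate block (adjusted p = 0.152 by limma). With the replicate number as a block, irf9 was called lower for the −/− label (adjusted p = 0.0440 by limma), as were 13.3% of all genes, with 45.6% called higher. No label pairs equally numbered libraries, and the block rests on correlations in these same data.

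IRF7 is the factor that amplifies interferon production and is itself interferon-inducible. The gene irf7 (ENSDARG00000045661.7, chromosome 25, 25546789 to 25550955) had 2.85, 2.204 and 2.24 TPM in the libraries labelled −/−, against 3.35, 2.96 and 2.41 TPM among those labelled +/+. Replicate 1 labelled −/− exceeded replicate 3 labelled +/+, so the groups overlapped, with means of 2.43 ± 0.363 TPM and 2.90 ± 0.473 TPM (SD, n = 3 each). The log2 fold change of −0.21 ± 0.16 (SE) did not pass in limma (adjusted p = 0.288). In each group replicate 1 held the highest irf7 value.

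IRF1 is a factor induced by interferon gamma that binds promoters of interferon-stimulated genes. The copy irf1b (ENSDARG00000043249.7, chromosome 21, 45626136 to 45633317) had 2.87, 2.48 and 2.05 TPM in the libraries labelled −/−, against 2.22, 2.45 and 2.46 TPM among those labelled +/+. The highest and the lowest of the 6 values both came from libraries labelled −/−. The means were 2.47 ± 0.410 TPM and 2.38 ± 0.133 TPM (SD, n = 3 each), and the log2 fold change was 0.04 ± 0.14 (SE), with an adjusted p of 0.846 by limma. The other copy, irf1a, was added to the account after its values were seen. It stood at 0.867 to 1.01 TPM among libraries labelled −/− and 1.06 to 1.68 TPM among those labelled +/+. The log2 fold change of irf1a was −0.35 on the deposited TPM scale and −0.52 after rescaling of the libraries by their median gene ratio. It met the filter through the libraries labelled +/+, since only replicate 1 labelled −/− also reached 1 TPM, so its p is not given.

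The interferon-stimulated genes were the lowest of the set, and none of the 4 reached 1 TPM in 3 libraries. ISG15 is a ubiquitin-like protein that is conjugated to other proteins after interferon. The gene isg15 (ENSDARG00000086374.3, chromosome 5, 20112032 to 20113284) had 0.424, 0.597 and 0.317 TPM in the libraries labelled −/−, against 1.25, 0.996 and 0.991 TPM among those labelled +/+. All 3 libraries labelled −/− were below all 3 labelled +/+, and the mean was 2.42 times higher in the libraries labelled +/+, at 0.446 ± 0.141 TPM for −/− and 1.08 ± 0.150 TPM for +/+ (SD, n = 3 each). By the ratio of means this gene differed most among the 8, though it did not enter the test of genes above the filter.

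When every gene above 0 in any library was fitted, isg15 was called lower, with a log2 fold change of −0.75 ± 0.14 (SE) and an adjusted p of 0.0258 by limma. In that fit, 6.86% of 27826 genes were called lower and 16.4% higher, and stat2 kept its call as higher (adjusted p = 0.0474). The isg15 call was lost without replicate 1 labelled −/− (adjusted p = 0.0728), replicate 3 labelled −/− (0.0641), replicate 1 labelled +/+ (0.111) or replicate 2 labelled +/+ (0.105), with log2 fold changes from −0.86 to −0.65 over all such fits. Coverage of isg15 was 1.19 to 5.30 per base, which limits the precision of the values.

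RSAD2, or viperin, is an antiviral enzyme of the endoplasmic reticulum. The gene rsad2 (ENSDARG00000004952.8, chromosome 17, 35357451 to 35361322) had 0.438, 0.766 and 0.642 TPM in the libraries labelled −/−, against 0.656, 0.625 and 0.546 TPM among those labelled +/+. The means were nearly equal, at 0.615 ± 0.166 TPM and 0.609 ± 0.0571 TPM (SD, n = 3 each), with more spread in the libraries labelled −/−. The log2 fold change was −0.00 ± 0.13 (SE), with an adjusted p of 0.995 by limma without the filter. Its neighbour cmpk2, a nucleotide kinase gene that lies 1528 bases away on the opposite strand and was added after its values were seen, stood at 0.360 to 0.386 TPM among libraries labelled −/− and 0.0961 to 0.199 TPM among those labelled +/+. In the fit without a filter cmpk2 was called higher (log2 fold change 0.43, adjusted p = 0.0242 by limma), while rsad2 was not called. The cmpk2 call was lost in 5 of the 6 fits without 1 library (adjusted p up to 0.0997) and held without replicate 3 labelled +/+ (0.0327), and its coverage was 0.360 to 1.41 per base.

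Mx proteins are dynamin-like GTPases that block viral replication, and mxa and mxb lie beside each other on 1 strand of chromosome 1 with 4169 bases between them. The gene mxa (ENSDARG00000021688.8, 7562316 to 7570181) had 0.413, 0.357 and 0.244 TPM in the libraries labelled −/−, against 0.567, 0.392 and 0.492 TPM among those labelled +/+. Replicate 1 labelled −/− lay above replicate 2 labelled +/+, so the groups overlapped. The gene mxb (ENSDARG00000004953.10, 7574351 to 7603734) had 0.795, 0.381 and 0.153 TPM in the libraries labelled −/−, against 0.368, 0.364 and 0.391 TPM among those labelled +/+. The libraries labelled −/− held both the highest and the lowest mxb value, while the 3 labelled +/+ lay close together.

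Neither Mx gene was called in the fit without a filter, with log2 fold changes of −0.23 ± 0.11 (SE, adjusted p = 0.159 by limma) for mxa and 0.05 ± 0.23 (SE, adjusted p = 0.883) for mxb. The value of mxb ranged from −0.21 to 0.29 when single libraries were left out. Reads that fit both Mx copies may be shared between them, so their sum was also taken. It was 1.21, 0.738 and 0.397 TPM in the libraries labelled −/−, against 0.935, 0.755 and 0.882 TPM among those labelled +/+, and the groups overlapped. The gene mxa lies 6896678 bases from stim2a on the same chromosome.

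In order of level, irf9 was followed by stat2, and then irf7 with irf1b, and the ranges of irf7 and irf1b overlapped within each group. Among the lowest 4 genes in the libraries labelled −/−, the means ran from 0.615 TPM for rsad2 to 0.338 TPM for mxa, and each overlapped the next in that order. In the libraries labelled +/+, isg15 stood above the ranges of rsad2, mxa and mxb, whose means ran from 0.609 to 0.374 TPM. There the ranges of rsad2 and mxa overlapped, and the highest mxb value, 0.391 TPM, was just under the lowest mxa value, 0.392 TPM. The summed level of the 8 genes was 23.3 to 25.4 TPM among libraries labelled −/− and 24.8 to 27.4 TPM among those labelled +/+, of which irf9 made up 46.4% to 56.0%.

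Ratios between genes of 1 library do not depend on how libraries are scaled, and the 4 ratios computed were chosen after the levels had been seen. The ratio of irf9 to stat2, both subunits of ISGF3, was 2.05, 2.36 and 1.58 in the libraries labelled −/−, against 3.23, 3.60 and 2.85 among those labelled +/+. The groups did not overlap, with means of 2.00 ± 0.393 and 3.23 ± 0.372 (SD, n = 3 each; exact two-sided permutation p = 0.1). Every library labelled −/− was lower in irf9 and higher in stat2 than any labelled +/+. The ratio of irf9 to stat2 therefore had to separate, and its p adds no support. The summed level of stat2 and irf9 overlapped between groups, at 17.6 to 18.0 TPM among libraries labelled −/− and 17.1 to 19.6 TPM among those labelled +/+. The ratio of irf7 to irf9 overlapped too, with means of 0.207 ± 0.0331 among libraries labelled −/− and 0.212 ± 0.0389 among those labelled +/+ (SD, n = 3 each; exact permutation p = 0.9). The ratio of isg15 to irf9 was 0.0374 ± 0.00902 among libraries labelled −/− and 0.0791 ± 0.0157 among those labelled +/+ (SD, n = 3 each), without overlap (exact permutation p = 0.1). The ratio of isg15 to rsad2 was 0.969, 0.780 and 0.494 in the libraries labelled −/−, against 1.91, 1.595 and 1.82 among those labelled +/+ (exact permutation p = 0.1). The libraries labelled −/− thus all held less isg15 than rsad2 by TPM, and those labelled +/+ all held more. Given the ranges of isg15, irf9 and rsad2 in each group, both ratios with isg15 also had to separate. Their p adds no support to the difference in isg15.

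**Figure D2:**
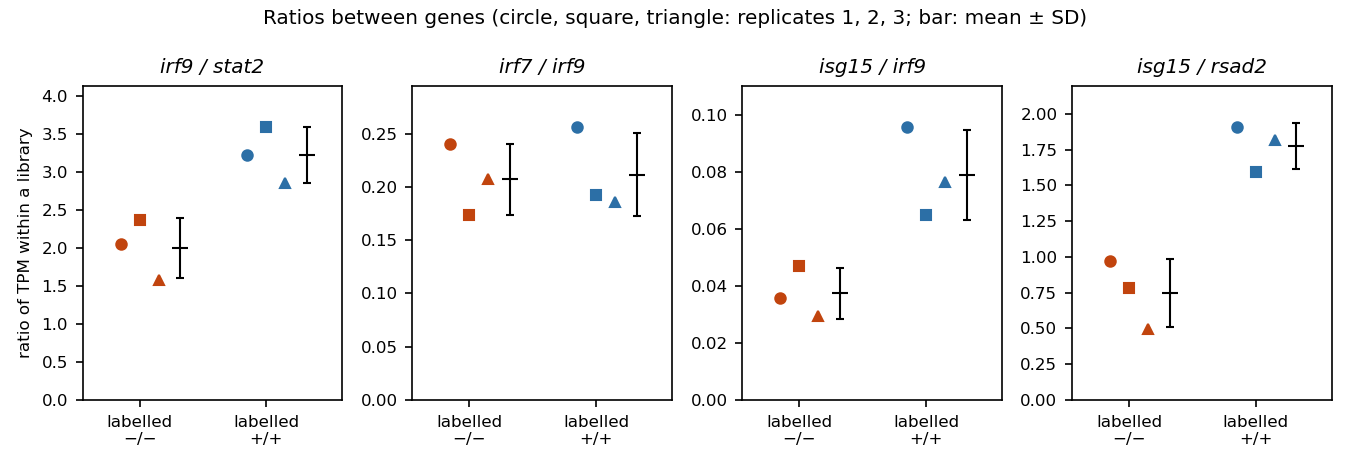
Ratios of TPM between pairs of interferon response genes within each library, labelled −/− at the left and labelled +/+ at the right, with circles, squares and triangles for replicates 1, 2 and 3 and bars for the mean ± SD (n = 3 each). The ratios of irf9 to stat2, isg15 to irf9 and isg15 to rsad2 are lower in every library labelled −/−, and the ratio of irf7 to irf9 overlaps.

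Which members were called depended in part on how libraries were scaled. The calls also moved with the filter, with the replicate block and with single libraries left out. Over all tested genes the median log2 fold change was 0.22 on the deposited TPM scale, and 0.00 once each library had been divided by its median gene ratio. After rescaling, 0 of the 4 tested genes were called higher and 1 lower, against 22.0% higher and 22.4% lower among all genes. The lower call was irf9 (log2 fold change −0.45 ± 0.14 SE, adjusted p = 0.0333 by limma). At an unadjusted p under 0.05, limma gave 0 higher and 2 lower, again with no share of all genes at that threshold. The call of stat2 was lost, with a log2 fold change of 0.21 and an adjusted p of 0.0976 by limma. Relative to the median gene, stat2 was thus 0.21 higher and not called, while irf9 was below it. The median over the 4 was −0.29 after rescaling. With both the rescaling and the replicate block, irf9 (adjusted p = 0.00250) and irf7 (0.0145) were called lower by limma, against 29.1% lower and 28.5% higher among all genes. Without a filter the rescaled fit called isg15 lower (log2 fold change −0.88, adjusted p = 0.0171 by limma). None of the 8 was called higher, against 15.9% lower and 13.4% higher among all genes. There, 7 of the 8 values were below 0, and the median over all genes fitted was −0.02. In that fit irf9 narrowly missed the threshold (adjusted p = 0.0593).

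**Figure D3:**
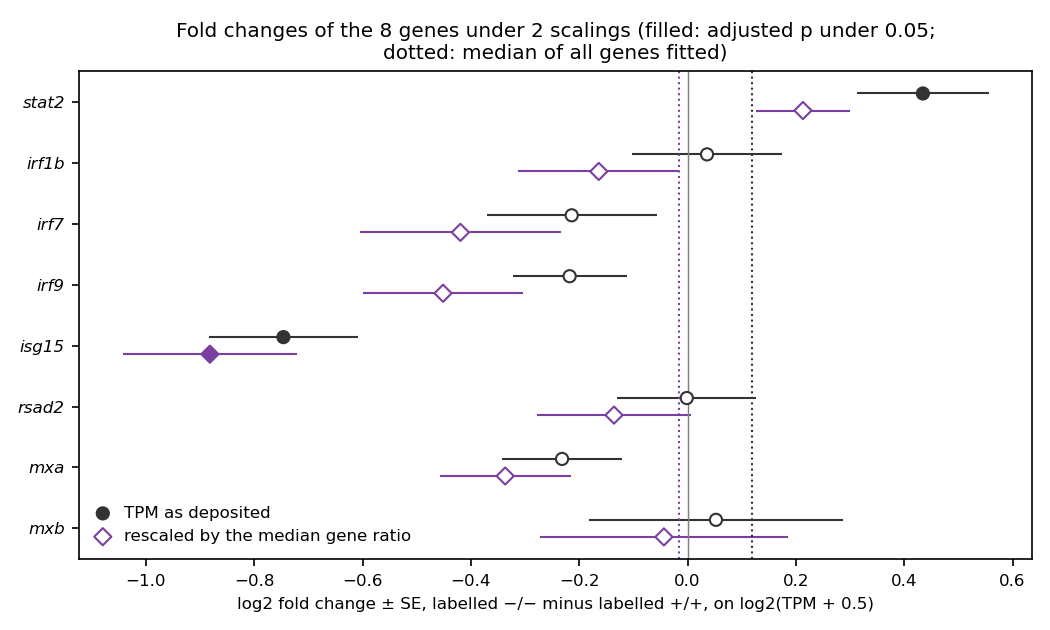
Log2 fold changes ± SE of the 8 genes, libraries labelled −/− minus libraries labelled +/+, from fits of all 27826 genes above 0 in any library, with the deposited TPM (circles) and with TPM divided by the median gene ratio (diamonds). Filled symbols mark an adjusted p under 0.05 and dotted lines the median of all genes fitted, 0.12 as deposited and −0.02 after rescaling. The values of stat2 and isg15 are the ones filled as deposited, and that of isg15 after rescaling.

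The authors' deposited table holds a test of its own for all 8 genes, made from normalized counts, with a direction that it does not state. Its log2 fold changes for stim2a (−1.73) and stim2b (−1.19) have the opposite sign to those above, and over 20329 genes its values correlated with the limma values at a Pearson r of −0.97 across genes, which are not independent. Of the 8 genes, the authors' deposited table called 2 at an adjusted p under 0.05, against 31.9% of 27373 genes. These were isg15 (log2 fold change 1.22 ± 0.32 SE, adjusted p = 0.00191) and irf9 (0.52 ± 0.15 SE, adjusted p = 0.00535), both with a positive sign. For stat2 the authors' deposited table gives −0.26 ± 0.10 (SE) with an adjusted p of 0.0856. The median over the 8 in the authors' deposited table was 0.35, against −0.01 over all genes with an adjusted p. Its mean normalized counts ran from 30.9 for mxb and 44.3 for isg15 to 1533 for stat2, which shows how few reads lay behind the lowest genes.

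Upstream of these factors, the interferon genes themselves were at or near 0. Among 20 ligands, receptors and kinases matched, ifnphi2, ifnphi4, ifng1 and ifng1r were listed at 0 in all 6 libraries. The gene ifnphi1 was listed at 0 in all libraries with the −/− label and had 0.276, 0.493 and 0.273 TPM among those labelled +/+. It lies within ifnphi3 on the opposite strand, and ifnphi3 stood at 0.255 to 0.460 TPM among libraries labelled −/− and 0.152 to 0.525 TPM among those labelled +/+. The reads were stranded, per the labels' protocols. The sources used here do not state whether strand was used in counting, so reads of these 2 genes may not be told apart. Both were added after their values were seen.

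Of 12 tested ligands, receptors and kinases, 1 was called higher and 1 lower, against 30.8% and 8.76% of all genes tested, with a median log2 fold change of 0.14 against 0.22 over all genes. The receptor gene crfb12, of the class II cytokine receptor family, was called lower, with 5.22 ± 0.528 TPM among libraries labelled −/− and 9.64 ± 0.625 TPM among those labelled +/+ (SD, n = 3 each). Its log2 fold change was −0.83 (adjusted p = 0.00683 by limma), and the call held without any 1 library. The gene il10rb, whose protein is shared by the receptors for interleukin 10 and, in mammals, lambda interferon, was higher, at 22.6 ± 2.65 TPM against 14.3 ± 1.78 TPM (adjusted p = 0.0149 by limma). That call was lost without replicate 1 (adjusted p = 0.0634) or replicate 2 (0.0551) labelled +/+. The kinase genes tyk2 (3.58 and 2.71 TPM for −/− and +/+) and jak2a (10.3 and 7.65 TPM) were not called (adjusted p = 0.0575 and 0.0648 by limma). Both passed as higher with the replicate block (0.0209 and 0.00508), which no label gives. Neither passed with the block and rescaling together (0.272 and 0.0652). With the block alone the list held 4 higher and 1 lower, against 45.6% and 13.3% of all genes. After rescaling it held 1 higher and 3 lower, against 22.0% and 22.4%.

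The receptor subunit crfb1, which binds phi interferons, stood at 2.18 to 2.48 TPM among libraries labelled −/− and 2.53 to 3.48 TPM among those labelled +/+ and was added after its values were seen. Its adjusted p by limma was 0.124 on the deposited scale and 0.0178 when rescaled. Also added after their values were seen were crfb2 and jak1, whose means were higher for the −/− label with overlapping groups. The level of crfb2 was 0.821 to 1.03 TPM for −/− and 0.664 to 0.879 TPM for +/+. That of jak1 was 13.65 to 18.3 TPM for −/− and 11.04 to 14.4 TPM for +/+ (adjusted p = 0.0758 by limma). The gene jak1 passed as higher with the replicate block (adjusted p = 0.00696 by limma) but not with the block and rescaling together (0.114).

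Among sensors and adaptors, 4 of 14 tested genes were called higher and 1 lower, shares close to those of all genes (30.8% and 8.76%), with a median log2 fold change of 0.07. The RIG-I-like receptor gene dhx58 stood at 1.45 ± 0.142 TPM among libraries labelled −/− and 0.807 ± 0.118 TPM among those labelled +/+ (SD, n = 3 each; log2 fold change 0.58). It passed the filter only through the libraries labelled −/−, so its p is not given, though it is counted among the 4 higher calls. The kinase gene tbk1 had means of 22.8 ± 3.79 TPM for −/− and 14.5 ± 2.73 TPM for +/+ (SD, n = 3 each; 0.64, limma adjusted p = 0.0227). The adaptor gene traf3, which acts upstream of TBK1, stood at 6.02 ± 0.510 TPM for −/− and 3.61 ± 1.02 TPM for +/+ (0.69, adjusted p = 0.0248 by limma). The 1 lower gene was sting1, the adaptor for cyclic dinucleotides, with 1.41 ± 0.176 TPM for −/− and 2.15 ± 0.202 TPM for +/+ (−0.47, adjusted p = 0.0279 by limma). The call of tbk1 was lost without replicate 1 (adjusted p = 0.0912 by limma) or 2 (0.0911) labelled +/+. The calls of traf3 and sting1 were lost without these (0.0951 and 0.0804, and 0.0961 and 0.0925) and without replicate 1 (0.0655 and 0.0781) or 3 (0.0551 and 0.0664) labelled −/−. The calls of tbk1, traf3 and sting1 held after rescaling, with adjusted p from 0.00772 to 0.0229 by limma.

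Of 15 tested other IRF, STAT and IRF2-binding genes, 5 were called higher and 1 lower, against 30.8% and 8.76% of all genes, with a median of 0.36. With the replicate block 9 were higher and 1 lower (all genes 45.6% and 13.3%), and after rescaling 4 higher and 3 lower (all genes 22.0% and 22.4%). The 3 genes for IRF2-binding proteins, which are corepressors in mammals, were among the higher ones. The gene irf2bpl stood at 31.7 ± 8.51 TPM among libraries labelled −/− and 12.7 ± 2.59 TPM among those labelled +/+ (SD, n = 3 each; log2 fold change 1.27, limma adjusted p = 0.00968). The level of irf2bp2a was 67.1 ± 18.4 TPM for −/− and 36.1 ± 7.76 TPM for +/+ (0.87, adjusted p = 0.0221 by limma). That of irf2bp2b was 39.2 ± 7.36 TPM for −/− and 23.5 ± 4.83 TPM for +/+ (0.73, adjusted p = 0.0208 by limma). The gene stat5a, for a STAT of growth hormone and cytokine signalling, stood at 7.67 ± 0.734 TPM for −/− and 5.09 ± 0.728 TPM for +/+ (0.55, adjusted p = 0.0222 by limma). The call of irf2bpl was lost without replicate 2 labelled +/+ (adjusted p = 0.0511). Those of irf2bp2a, irf2bp2b and stat5a were lost without replicate 1 (0.0867, 0.0848 and 0.0920) or 2 labelled +/+ (0.0869, 0.0855 and 0.0858) or replicate 1 labelled −/− (0.0575, 0.0558 and 0.0532), and stat5a also without replicate 3 labelled −/− (0.0512).

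Of 64 other interferon-stimulated genes matched, 24 were under 1 TPM in every library and 3 were listed at 0 throughout. Of the 37 tested, 4 were called higher and 4 lower, against 30.8% and 8.76% of all genes, with a median log2 fold change of 0.07. The gene ifit12, of the IFIT family of RNA-binding antiviral proteins, had 0.457, 0.605 and 0.419 TPM in the libraries labelled −/−, against 2.05, 1.65 and 2.06 TPM among those labelled +/+. Its mean was 3.89 times higher in the libraries labelled +/+, with a log2 fold change of −1.28. It entered the test only through the libraries labelled +/+, so its p is not given, though it is counted among the 4 lower calls. The gene ifi44a5 was also lower, at 1.58 ± 0.658 TPM for −/− and 3.69 ± 0.279 TPM for +/+ (SD, n = 3 each, log2 fold change −1.06, limma adjusted p = 0.0161). So was rnasel3, a ribonuclease of the RNase A family, at 7.61 ± 1.24 and 11.502 ± 0.438 TPM (−0.58, adjusted p = 0.0179 by limma). Whether interferon raises rnasel3 was not tested here, though it is counted among the 4 lower calls. The Mx paralog mxc went the other way from ifit12, at 2.06 ± 0.490 TPM for −/− and 1.14 ± 0.136 TPM for +/+ (0.63, adjusted p = 0.0238 by limma).

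The calls of ifi44a5, rnasel3 and mxc were lost without replicate 1 (adjusted p = 0.0662, 0.0694 and 0.0697 by limma) or replicate 2 labelled +/+ (0.0640, 0.0751 and 0.0921), those of rnasel3 and mxc also without replicate 1 labelled −/− (0.0508 and 0.0568), and that of mxc also after rescaling (0.0622). Rescaling left 1 higher and 11 lower in this list, against 22.0% and 22.4% of all genes, and the replicate block 9 higher and 7 lower, against 45.6% and 13.3%. The count of lower genes in this list thus depended on the scaling, as did the call of irf9. A further Mx paralog, mxd, was added after its values were seen and stood at 0.271 to 0.329 TPM among libraries labelled −/− and 0.607 to 0.882 TPM among those labelled +/+. The paralog mxg, added likewise, was also lower, at 0 to 0.108 TPM for −/− and 0.222 to 0.522 TPM for +/+. Groups overlapped for mxe (0.0243 to 0.147 and 0.0383 to 0.248 TPM) and mxf (0.309 to 0.386 and 0.291 to 0.625 TPM), also added later.

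Negative regulators of the pathway held 9 higher calls and 0 lower among 20 tested, against 30.8% and 8.76% of all genes, with a median of 0.39. With the replicate block 14 were higher and 1 lower, against 45.6% and 13.3% of all genes. At an unadjusted p under 0.05 the limma counts were 13 higher and 0 lower. No share of all genes at that threshold is given, so these counts show no excess. The gene socs3a, for an inhibitor of JAK kinases, had 53.4, 21.4 and 17.2 TPM in the libraries labelled −/−, against 7.40, 8.19 and 8.33 TPM among those labelled +/+. Its groups lay apart, and replicate 1 labelled −/− was far above replicates 2 and 3 of its group. The log2 fold change was 1.70 (adjusted p = 0.0160 by limma). The SUMO ligase genes pias1a (2.18 and 1.36 TPM for −/− and +/+) and pias1b (4.50 and 2.91 TPM), whose protein restrains STAT factors in mammals, were higher (adjusted p = 0.0269 and 0.0218 by limma), as was irf2bp2b, which is on this list too. The call of socs3a was lost without replicate 1 (adjusted p = 0.0654) or 2 (0.0665) labelled +/+. Those of pias1a and pias1b were lost without these (0.104 and 0.0925, and 0.101 and 0.0814) and without replicate 1 (0.0531 and 0.0559) or 3 (0.0674 and 0.0506) labelled −/−. After rescaling, 7 were higher and 2 lower, against 22.0% and 22.4% of all genes. The gene usp18, whose protein removes ISG15 from its targets in mammals, was added after its values were seen and overlapped between groups, at 0.624 to 0.991 TPM for −/− and 0.723 to 0.917 TPM for +/+.

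Antigen presentation by MHC class I and the immunoproteasome is raised by interferon. Of 22 tested genes of this list, 3 were called higher and 6 lower, against 30.8% and 8.76% of all genes, with a median log2 fold change of −0.17 against 0.22. After rescaling 1 was higher and 12 lower, against 22.0% and 22.4% of all genes. The gene psmb10, a catalytic subunit of the immunoproteasome, had 4.67, 4.36 and 4.39 TPM in the libraries labelled −/−, against 8.46, 8.34 and 10.4 TPM among those labelled +/+. The mean was 2.03 times higher in the libraries labelled +/+ (log2 fold change −0.94, adjusted p = 0.00486 by limma), and the call held without any 1 library. The class I gene mhc1zka, on an unplaced scaffold, was listed at 0 in all 3 libraries labelled −/− and had 1.52, 1.31 and 2.25 TPM among those labelled +/+. It passed the filter only through the libraries labelled +/+, so its p is not given, though it is counted among the 6 lower calls. The class I gene mhc1zda stood at 12.6 ± 0.509 TPM for −/− and 16.7 ± 1.23 TPM for +/+ (SD, n = 3 each; −0.39, limma adjusted p = 0.0227), whereas mhc1lia stood at 4.83 ± 1.06 and 2.29 ± 0.393 TPM (0.92, 0.0141). The calls of mhc1zda and mhc1lia were lost without replicate 1 (adjusted p = 0.0985 and 0.0633) or 2 (0.0703 and 0.0666) labelled +/+. The summed level of the list was 671.8 to 693.6 TPM among libraries labelled −/− and 757.6 to 774.8 TPM among those labelled +/+.

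**Figure D4:**
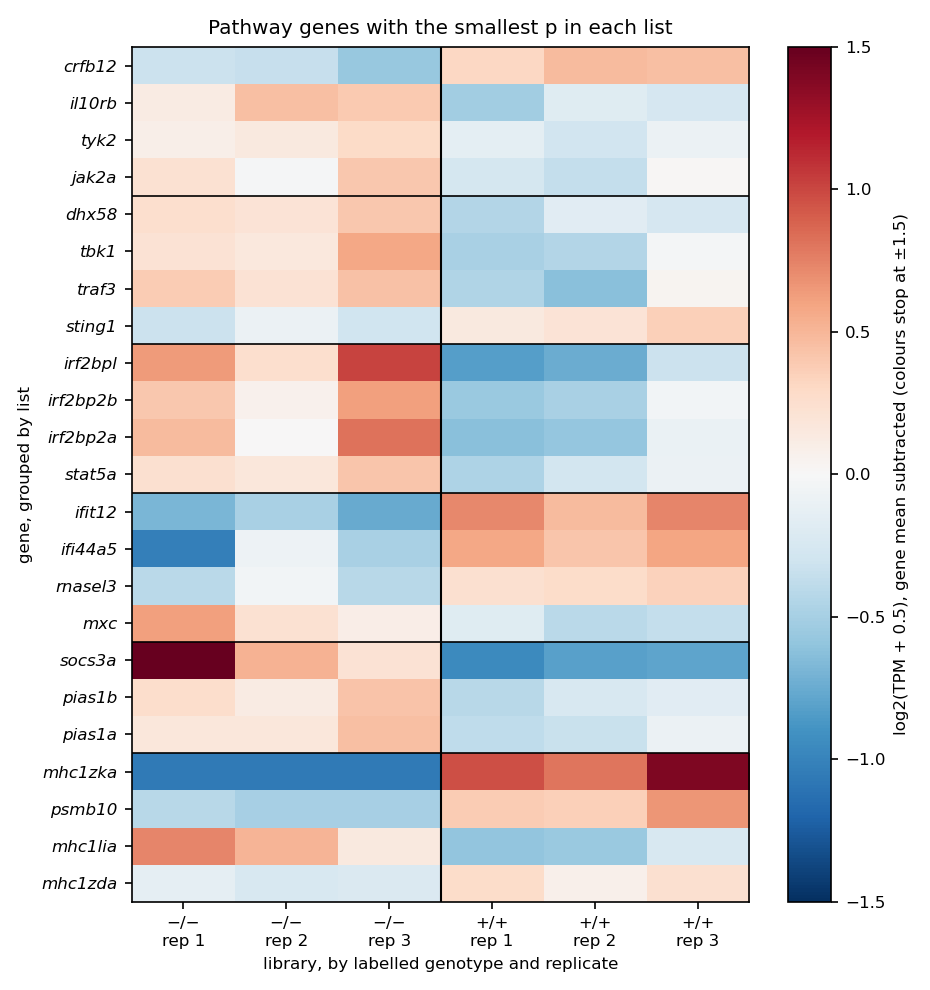
Log2(TPM + 0.5) minus the gene's mean over the 6 libraries for the 4 tested genes with the smallest p in each of 6 pathway lists, with libraries labelled −/− at the left and labelled +/+ at the right, and colours that stop at ±1.5. Lines separate, from the top, receptors and kinases, sensors and adaptors, and other IRF, STAT and IRF2-binding genes. Below these are interferon-stimulated genes, negative regulators, and MHC class I and immunoproteasome genes. The gene irf2bp2b is drawn once though it is in 2 lists. Genes higher and genes lower in the libraries labelled −/− are drawn in 4 of the 6 lists.

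Marker genes of several cell types differed between the labelled groups, and their part in the results was not tested. Calls of these markers are to be read against 30.8% higher and 8.76% lower among all genes with the deposited TPM, and 22.0% and 22.4% after rescaling. Of 24 macrophage marker genes matched, 0 of the 18 tested were called higher and 1 lower (4 lower after rescaling), and their summed level was 1127 to 1407 TPM among libraries labelled −/− and 1236 to 1368 TPM among those labelled +/+, with 1 of the genes matched to the family symbol MPEG1 listed at 0 throughout. Neutrophil markers, 8 genes, summed to 101.2 to 117.7 TPM among libraries labelled −/− and 123 to 133 TPM among those labelled +/+ (0 higher and 1 lower of 6 tested, and 4 lower after rescaling). General leukocyte markers, 12 genes, summed to 129 to 136 TPM among libraries labelled −/− and 138 to 148 TPM among those labelled +/+ (0 higher and 1 lower of 12 tested, and 5 lower after rescaling). The 16 lymphocyte markers summed to 30.3 to 47.9 TPM among libraries labelled −/− and 18.7 to 26.9 TPM among those labelled +/+ (2 higher and 0 lower of 7 tested, 1 each after rescaling), and cd8a was listed at 0. Keratinocyte markers summed to 15077 to 16149 TPM for −/− and 18251 to 20306 TPM for +/+ (4 of 11 lower, 6 after rescaling). Neuron markers summed to 1367 to 1836 TPM for −/− and 1099 to 1310 TPM for +/+ (10 of 13 higher and 1 lower, 8 and 3 after rescaling). Endothelial markers summed to 22.6 to 31.5 TPM for −/− and 13.2 to 17.6 TPM for +/+ (4 of 4 tested higher, 3 after rescaling). The 11 hepatocyte markers summed to 10437 to 13716 TPM for −/− and 12546 to 14229 TPM for +/+ (2 of 10 tested higher and 3 lower, 0 and 3 after rescaling).

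The mean of the centred log2 values of the 4 tested genes spanned only −0.05 to 0.10 over the 6 libraries. These genes share no common pattern, since stat2 was higher and irf9 lower in every library labelled −/−. Genes with a symbol and a mean of at least 5 TPM were ranked by Pearson r with this mean. The 5 highest over the 6 libraries, which share their scaling, were svopl (Pearson r = 0.967), CARTPT (0.965), vps26b (0.958), mrpl18 (0.953) and orc5 (0.947). Picking the largest r among many genes over 6 libraries gives high values without any link. None of these 5 was called between the labelled genotypes on the deposited TPM scale without the replicate block.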

How the data were processed

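Whole larvae were sequenced as stranded paired reads of 75 bases, per the labels' protocols. Each sample has a deposited table of mean coverage per base, FPKM and TPM per gene, in StringTie's layout per the file headers, and TPM sums to 1000000 in each. The submitters' processing notes list StringTie 1.3.3b, STAR 2.5.3a, DESeq2 1.16.1, hg38 and danRer11, with no role given for any. Coordinates are those of the deposited tables. A deposited table of the authors' test gives, per the file headers, the mean normalized count as a signal, the log2 fold change and its SE, a Wald score and p-values. File names contradict the genotype labels and grouped no sample.

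Of 32520 genes, 29201 received a symbol from a table of Ensembl identifiers, and 10961 of these were named as a paralog where RefSeq genes of assembly GRCz12tu had 1 matching symbol on the chromosome. No sequence is printed because none was used here. The design allowed for a count test. The sample tables hold no counts, so limma 3.58.1 in R 4.3.3 (lmFit, eBayes with trend) was run on log2(TPM + 0.5). It covered the 20330 genes that reached 1 TPM in 3 or more of 6 libraries, with Benjamini-Hochberg adjustment over all of them and calls at an adjusted p under 0.05. TPM keeps no absolute depth. The fit was also run on simulated data with few changed genes and no shift in scale between libraries. These data differ in both respects, and no result here rests on that run. Single genes and ratios were compared by exact permutation in Python 3.11.15 with SciPy 1.17.1 and pandas 2.3.3. Genes named are the members (2 of 10 are not reported here), stim2a and stim2b, the 4 tested genes with the smallest p in each of 6 pathway lists, and the 5 genes most like the members' mean profile. Others are marked where they stand as added later. The members and lists were chosen with earlier results of these data known.

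Deviations from the group means of equally numbered libraries correlated at 0.25, 0.19 and 0.48 for replicates 1, 2 and 3, over a rule of more than 0.1 for every pair. The pairing comes from these data and from no label, and replicate 2 labelled −/− correlated more with replicate 1 labelled +/+ (0.29). Alternatives were other pseudocounts, filters and scalings, FPKM, no variance trend, the replicate block, and each library left out.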

Additional observations from a re-analysis of the deposited data

How the results depend on the processing

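Of the 8 genes, 4 were tested, and of these 1 was called higher and 0 lower, against 30.8% and 8.76% of all genes tested. Fits without a filter covered all 8. The count of higher calls fell to 0 when libraries were divided by their median gene ratio (22.0% of all genes). It was also 0 with quantile scaling (20.5%), and with the replicate block and rescaling together (28.5%). It ran from 0 to 1 when single libraries were left out. The count of lower calls became 1 without a filter (6.86% of all genes), 1 after rescaling (22.4%) and 1 with quantile scaling (20.8%). It was 1 with the replicate block (13.3%) and 2 with the block and rescaling (29.1%), and it stayed 0 without any 1 library. Fits without a filter that were rescaled, blocked or left out 1 library were chosen after seeing the data. The one with this rescaling called 0 higher and 1 lower (13.4% and 15.9% of all genes). The one with the replicate block called 1 higher and 1 lower (31.9% and 9.76%). Those without 1 library called 0 higher and 0 to 1 lower. Over all genes, 6265 were called higher and 1781 lower. Higher calls numbered 3919 at a mean of at least 5 TPM, 4161 with quantile scaling and 3730 without a filter and with rescaling. They ran from 357 (without replicate 2 labelled +/+) to 8026 (without replicate 3 labelled +/+), and from 104 to 6168 without a filter. Lower calls numbered 4560 after rescaling, 4229 with quantile scaling, 2837 with FPKM, 2695 with the replicate block, 5919 with the block and rescaling, 4411 without a filter and with rescaling and 2716 without a filter and with the block. They ran from 300 to 1651 when single libraries were left out, and from 268 to 1690 without a filter. The cause was not tested. With the replicate block, stat2 kept its call (adjusted p = 0.00663 by limma), as did isg15 without a filter (0.0124). Pseudocounts of 0.1 and 1, FPKM and no variance trend left stat2 as the 1 call. With quantile scaling stat2 (adjusted p = 0.318 by limma), stat5a (0.0605), pias1a (0.0621), pias1b (0.0730) and mxc (0.0798) were not called, and irf9 (0.0377) was. With the block and rescaling, orc5 (log2 fold change −0.21) and mrpl18 (−0.24), both among the genes most like the mean of the 4 tested, were called lower. The values of irf1b, mxb and rsad2 lay near 0 and were below it after rescaling. Of the pathway lists, each had 0 higher calls in at least 1 of the fits without a library. TPM keeps no read counts, so no counting interval can be given, and 4 of the 8 genes lay under the filter. The values of isg15, rsad2 and both Mx genes rest on little coverage and limit what could be detected.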
